A study of Mus musculus with 11 samples.

Results

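Arntl2 and 9 other genes of the circadian clock were followed through 11 mouse lymphomas: Arntl2, Arntl, Clock and Npas2 (the activators), Per1, Per2, Per3, Cry1 and Cry2 (the repressors) and Nr1d1 (a nuclear receptor of the stabilising loop). They were found by the gene name attached to each non-control probe, which gave 14 probes for 10 genes out of 39429 probes for 31473 genes on the array. Of the 10 genes, 9 were well above background on at least 3 arrays and were tested among 20181 genes, and Npas2 was not. Arntl2 was selected on its difference between lymphoma types in an earlier analysis of the same tumours, so its values are described here without a test. The other 9 were chosen for their place in the clock.

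All 11 tumours came from lymph nodes of mice of the Black 6 strain that carried the c-myc-3'RR transgene, in which the regulatory region 3' of the immunoglobulin heavy chain genes drives c-myc in B lineage cells, and that had the genotype p53+/-. The labels call every sample a mature B cell. By the origin the labels give, 4 were plasma cell lymphomas (PCL1 to PCL4), 3 mantle cell lymphomas (MCL1 to MCL3) and 4 Burkitt lymphomas (BL1 to BL4), and each was hybridised to a one-colour array of its own. The transgene, the p53 genotype and the lymph node origin are shared by every group, so no comparison here concerns them, and no sample without lymphoma was analysed. The labels give neither the age of the mice nor the hour at which a tumour was taken, and they do not say that each tumour came from a different mouse. The p-values therefore speak of the spread among these samples alone, part of which may be technical. Each lymphoma type occupied a slide of its own, and slide and type cannot be told apart.

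The circadian clock is a feedback loop of transcription. The proteins of Clock or Npas2 pair with those of Arntl or its paralog Arntl2 and switch on genes with E-box sites, among them the Per and Cry genes, whose proteins return to block the pair. In a side loop, the repressor Nr1d1 and its relative Nr1d2 compete with the ROR receptors for sites in Arntl and other genes, and factors such as Dbp, Tef and Nfil3 act on D-box sites. In tissues that keep time, Arntl and Nr1d1 messenger RNAs peak at nearly opposite hours. With 1 sample per tumour and no hour of collection, the phase and the level of a rhythmic gene cannot be told apart.

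The promoters below are shown because they carry the letters through which these loops are known to act, and that of Arntl2 because the results turn on that gene. Each is the stretch of 250 bases before a RefSeq transcription start of build GRCm38.p6, on the strand of the gene, with matches to 3 motifs in capitals: the E-box CACGTG, the D-box TTATGTAA and the ROR half-site AGGTCA on either strand. No match overlaps another in these stretches.
Per1 (chr11:69098699-69098948, + strand; an E-box and then a ROR half-site): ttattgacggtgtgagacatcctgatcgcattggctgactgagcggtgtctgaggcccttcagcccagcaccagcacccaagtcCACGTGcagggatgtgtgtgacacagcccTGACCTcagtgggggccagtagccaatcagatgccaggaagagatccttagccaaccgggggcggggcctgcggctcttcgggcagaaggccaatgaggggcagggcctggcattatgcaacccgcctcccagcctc
Cry1 (chr10:85185055-85185304, - strand; an E-box): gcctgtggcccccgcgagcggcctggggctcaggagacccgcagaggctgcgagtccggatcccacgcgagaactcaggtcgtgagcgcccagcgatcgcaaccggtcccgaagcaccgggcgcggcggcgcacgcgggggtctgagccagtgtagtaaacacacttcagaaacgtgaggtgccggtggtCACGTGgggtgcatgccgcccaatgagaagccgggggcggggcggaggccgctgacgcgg
Per3 (chr4:151044666-151044915, - strand; 2 D-boxes): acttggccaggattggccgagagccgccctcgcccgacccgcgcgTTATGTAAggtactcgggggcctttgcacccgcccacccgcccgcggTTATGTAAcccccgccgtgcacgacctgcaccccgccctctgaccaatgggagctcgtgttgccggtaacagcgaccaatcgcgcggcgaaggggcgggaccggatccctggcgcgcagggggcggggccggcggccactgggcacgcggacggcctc
Arntl2 (chr6:146805280-146805529, + strand; no match): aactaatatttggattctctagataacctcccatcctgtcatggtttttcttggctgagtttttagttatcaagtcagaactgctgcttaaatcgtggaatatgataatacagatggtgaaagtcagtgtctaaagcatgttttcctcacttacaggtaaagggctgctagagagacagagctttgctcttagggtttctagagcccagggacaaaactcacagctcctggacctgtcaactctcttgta
The search covered 300 bases, 250 before to 50 after each start. Windows were found for 9 of the 10 genes (not Per2), 13 windows in all, since some genes have several starts. The E-box was in windows of 2 of these genes (Per1 and Cry1), the D-box in those of 1 (Per3) and the ROR half-site in those of 3 (Arntl, Clock and Per1). Among all 32851 windows of that length, 7.15% held the E-box, 0.938% the D-box and 16.3% the ROR half-site. These shares are per window, whereas a gene was counted above if any of its windows matched. A match describes the letters and does not show binding.

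Levels are given as log2 of the processed spot signal minus the array's 75th percentile, so that 0 is the 75th percentile of the array's non-control spots, and they are compared between tumours for the same probe only. On each array 55.5% to 62.8% of 43020 spots were well above background, 0 were saturated, and the RNA integrity numbers ran from 8 to 10. All 8 of the 8 B cell markers examined passed the filter on dim probes, with list means (of values less the 11-tumour mean of that gene) of -0.59 to -0.13 in PCL, -0.46 to 0.33 in MCL and 0.24 to 0.51 in BL. PCL1 stood apart from the other plasma cell lymphomas: its mean over 12 macrophage markers, centred in the same way, was -0.83, against 1.36 to 2.56 in PCL2 to PCL4. The number of genes that differed between PCL and MCL was 1401 with PCL1 and 2462 without it. In bulk tumour RNA, fewer cells of a type and less RNA per cell cannot be told apart.

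Arntl2 was low in all 4 plasma cell lymphomas, high in all 3 mantle cell lymphomas and divided among the Burkitt lymphomas. Its brightest probe (A_55_P2114799, mm9 chr6:146781976-146782035, + strand, within Arntl2 by the name in the files; no exon annotation of that build was used) was well above background on all 11 arrays. It read -1.88, -2.56, -2.05 and -2.39 in PCL1 to PCL4, and 1.80, 2.07 and 1.09 in MCL1 to MCL3. In BL1 to BL4 it read 2.41, 2.37, 0.59 and -1.86. BL1 and BL2 were the highest of all tumours, and BL3 lay below the mantle cell range. BL4 lay beside PCL1 at the bottom, far from the other Burkitt tumours.

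The means were -2.22 ± 0.31 in PCL (SD, n = 4), 1.65 ± 0.51 in MCL (SD, n = 3) and 0.88 ± 2.01 in BL (SD, n = 4). PCL minus MCL was -3.87 (standard error 0.88) on the log2 scale, a ratio of 14.6 between MCL and PCL, and no tumour of one type reached the range of the other. PCL minus BL was -3.10 (standard error 0.81). MCL minus BL was 0.77 (standard error 0.88), which rested on BL4: without that tumour the difference was -0.14. These 3 differences share tumours with the contrast on which the gene was selected and are a description.

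The other 2 Arntl2 probes gave the same division of tumours. Probe A_55_P1977658 (mm9 chr6:146781053-146781112) was well above background in MCL1 to MCL3 and BL1 to BL3, and not well above background in any PCL or in BL4. Its mean was -2.62 in MCL, -3.89 in BL and -7.89 in PCL. Taking the detection limit of each array for the dim side, MCL exceeded PCL by at least 7.95-fold. For BL, with 3 of 4 tumours measured, the same ratio was 3.29. It is not a lower bound, since the BL mean includes the undetected BL4. BL4 read -8.10, within the PCL range of -8.32 to -7.35. Probe A_55_P2114796 (mm9 chr6:146776628-146776687) was detected in the same 6 tumours, and there MCL exceeded PCL by at least 4.82-fold. For BL the ratio was 3.15, again with the undetected BL4 (-6.28) in the mean and so not a lower bound. Across the 11 tumours the 3 probes correlated with one another at Pearson r of 0.973 to 0.988, as a description.

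**Figure D1:**
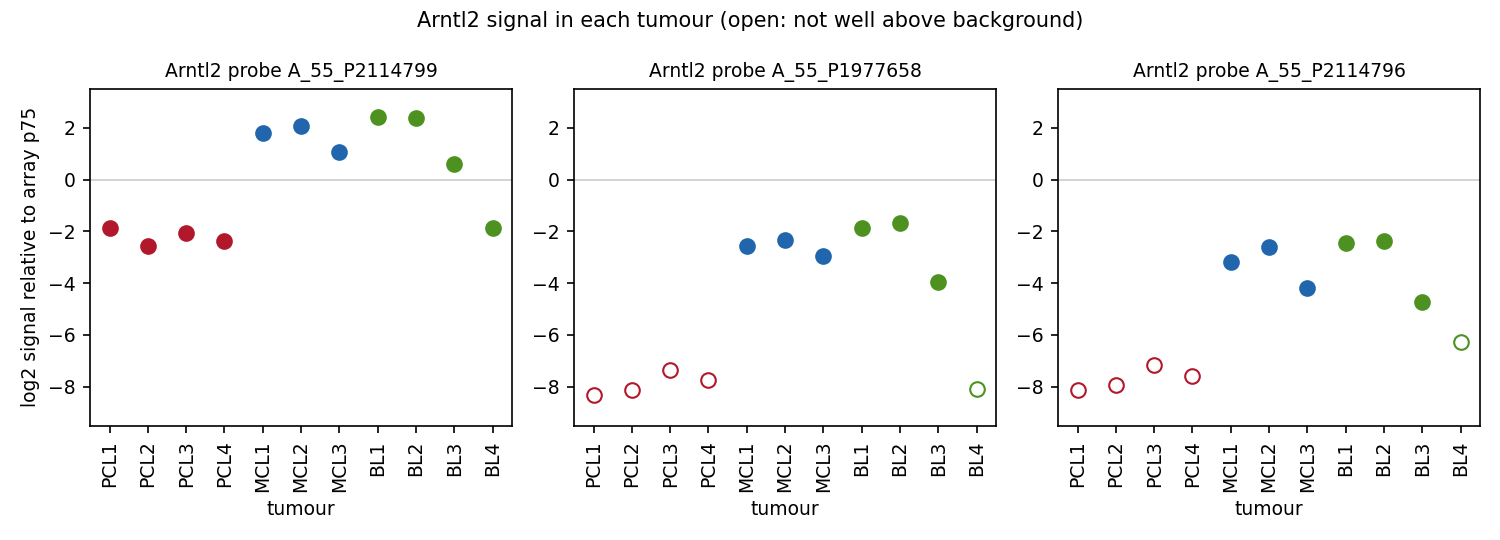
Log2 signal of the 3 Arntl2 probes relative to the 75th percentile of the array (y axis) in each of the 11 tumours (x axis; red PCL, blue MCL, green BL), with open circles where the probe was not well above background. On each probe the 4 PCL and BL4 are at the bottom, and BL1 and BL2 are at or near the top.

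Some other genes varied across the tumours in nearly the same way as Arntl2. Among 13920 named genes, the 8 with the highest Pearson correlation with the main Arntl2 probe over the 11 tumours had r between 0.911 and 0.950. Dera, an aldolase that breaks down deoxyribose phosphate, was first (0.07, -0.33, -0.43 and -0.34 in PCL; 0.65, 0.99 and 0.78 in MCL; 1.17, 0.98, 0.50 and -0.71 in BL), and BL4 was its lowest tumour of all. Mogs, a glucosidase that trims glycans in the endoplasmic reticulum, followed with r of 0.935, and its PCL minus MCL difference was -0.44. The rest were Sars2 (r 0.931; mitochondrial seryl-tRNA synthetase), Zfp972 (0.929), Aldh16a1 (0.919), Ppp1r16b (0.913; a phosphatase regulator), Prkag1 (0.912; a subunit of the energy sensor AMPK) and Anapc15 (0.911; a subunit of the anaphase-promoting complex). None of the 8 is a clock gene of the lists examined. The 36 tested clock and bHLH-PAS list genes are few beside 13920 candidates, so this is not a result about the clock. After each type's mean was subtracted, only Dera stayed among the 8 most alike, with r of 0.950. Dera and Mogs lie on chromosome 6, as Arntl2 does, and 3 of the 8 lie on chromosome 7. Of the candidates, 4.94% were on chromosome 6 and 8.42% on chromosome 7. The 11 points share arrays and scaling, so these values describe likeness and carry no p.

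The genes next to Arntl2 also had lower means in PCL, by smaller amounts. Within 500 kb of the Arntl2 probe, 11 other genes were measured, and on the processed signal all 11 had a lower mean in PCL than in MCL and than in BL. Their PCL minus MCL differences ran from -1.26 (Tm7sf3) to -0.05 (Rep15), with a median of -0.70, against -3.87 for Arntl2. Against BL the median was -0.61. Over all genes the medians were -0.03 for PCL minus MCL and 0.09 for PCL minus BL. The share of all genes with a lower mean in PCL is not given here. With another background correction (normexp), 8 of 11 were lower in each comparison, and with quantile normalization or the authors' deposited log2 values 11 of 11 were.

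One of the 11 passed the test in PCL against MCL (limma, Benjamini-Hochberg over all genes), near the share of 6.94% over all genes: Ints13, a subunit of the Integrator complex, read 1.503, 0.75, 0.60 and 0.62 in PCL, 1.60, 2.46 and 2.13 in MCL and 2.42, 2.23, 1.91 and 1.77 in BL. Every PCL lay below every MCL and BL tumour, and PCL minus MCL was -1.20 (adjusted p 0.0395). The call was lost without any one of PCL2, PCL3, PCL4, MCL2, MCL3, BL2 or BL3 (adjusted p 0.0547 to 0.127), with normexp (0.0886) and with no filter on dim probes (0.0689). The remaining neighbours, with PCL minus MCL in parentheses, were Fgfr1op2 (-0.53), Gm6654 (-0.70), the Mediator subunit Med21 (-0.63), the kinase Stk38l (-0.37), Smco2 (-0.59), Ppfibp1 (-1.15), the mitochondrial ribosomal gene Mrps35 (-0.71) and Klhl42 (-1.01). In BL4, 8 of the 11 neighbours were below the other 3 BL tumours, with a median shortfall against their mean of -0.83, where that of Arntl2 was -3.65. The share of all genes lowest in BL4 among the BL tumours is not given here. Over bright genes of all autosomes the median difference was 0.04 in PCL minus MCL and 0.02 in PCL minus BL. Over 454 bright genes of chromosome 6, the median PCL minus MCL difference was -0.47 and the median PCL minus BL difference -0.63. By tumour, the chromosome's median was lowest in PCL2 to PCL4 (-0.41, -0.47 and -0.52), and it was 0.04 in PCL1 and 0.10 in BL4, the other tumours with low Arntl2. Its part in the Arntl2 values was not tested.

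**Figure D2:**
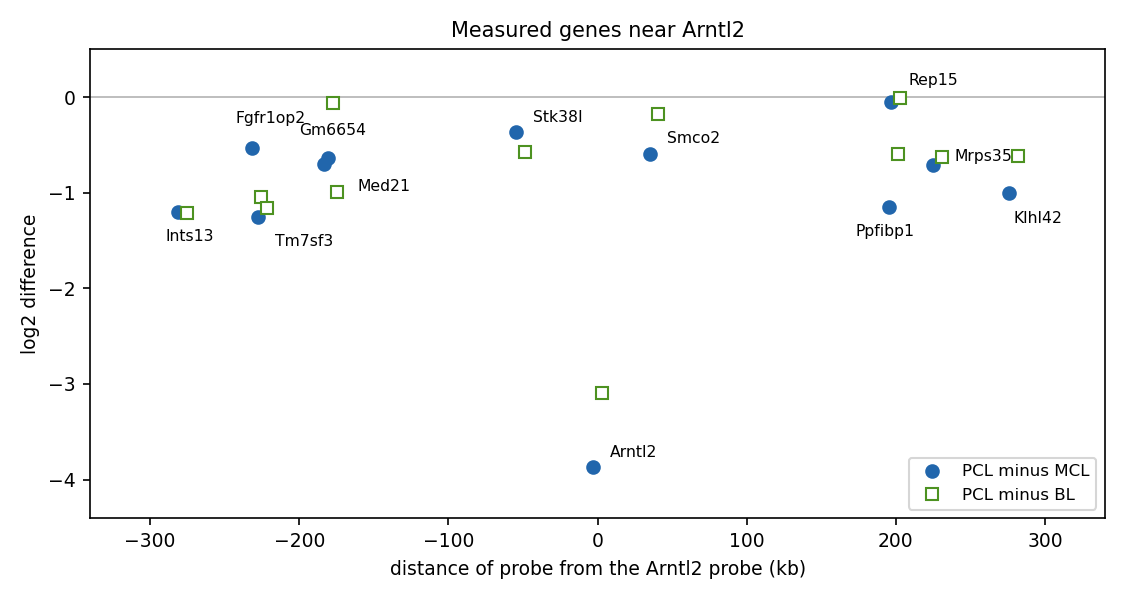
Log2 difference (y axis; filled circles PCL minus MCL, open squares PCL minus BL) of the genes measured within 500 kb of Arntl2, against the distance of each probe from the Arntl2 probe in kb (x axis). The 11 neighbours lie between -1.26 and 0, and Arntl2 lies below them at -3.87 and -3.10.

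Arntl, the core partner of Clock and the paralog of Arntl2, followed a different order, with its highest values in Burkitt lymphomas. It read -0.89, -0.69, 0.07 and -0.50 in PCL1 to PCL4. In MCL1 to MCL3 it read -1.58, 0.21 and -0.75, and in BL1 to BL4 -0.12, 1.43, 1.18 and 0.99. BL2, BL3 and BL4 were above every other tumour, while BL1 lay within the range of the other types. BL4, with little Arntl2 signal, was thus among the 3 tumours highest in Arntl.

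MCL minus BL was -1.58 for Arntl (standard error 0.47, 95% interval -2.63 to -0.53, limma adjusted p 0.0830), and PCL minus BL was -1.37 (standard error 0.44, adjusted p 0.145); neither passed. Without BL1 the MCL minus BL difference was -1.91 (adjusted p 0.0363) and without MCL2 it was -2.04 (adjusted p 0.0468), both past the threshold. PCL and MCL differed by 0.20 (95% interval -0.85 to 1.25), which was -0.23 without MCL1 and 0.66 without MCL2. Over the 11 tumours the correlation of Arntl with Arntl2 was 0.160 (Pearson) and 0.264 (Spearman), as a description.

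Clock, a partner in the activator pair whose level changes little over the day in many tissues, had the smallest range of the 9 tested genes. All 11 tumours lay between -1.89 (BL3) and -0.93 (PCL1), with means of -1.38 ± 0.34 in PCL (SD, n = 4), -1.52 ± 0.19 in MCL (SD, n = 3) and -1.59 ± 0.32 in BL (SD, n = 4). The types overlapped throughout, and the 95% intervals of the 3 differences were -0.39 to 0.68, -0.28 to 0.71 and -0.47 to 0.61 for PCL minus MCL, PCL minus BL and MCL minus BL. Npas2, which can take the place of Clock, was not well above background on any of the 11 arrays, and no difference is given for it.

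Among the repressors, Per1, which also answers to glucocorticoid and growth factor signals, was similar in most tumours. Its main probe read 1.77, 1.58, 1.47 and 1.17 in PCL, 1.27, 1.65 and 0.72 in MCL and 0.62, 3.13, 1.41 and 1.37 in BL. BL2 was the highest and BL1 the lowest of all tumours, so the Burkitt lymphomas spanned the whole range. The second Per1 probe was well above background on 7 arrays and correlated with the first at r of 0.616. The PCL minus MCL difference of the main probe was 0.28 (95% interval -0.83 to 1.39), and 0.03 without MCL3.

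Per2, a limiting partner of the repressor complex, was dim and uneven within types. It read -3.18, -4.22, -4.87 and -6.26 in PCL, where PCL3 and PCL4 were not well above background. In MCL it read -5.07, -3.15 and -2.68, and in BL -3.49, -3.60, -3.18 and -3.89. MCL1 was as low as the lower plasma cell lymphomas, and the BL tumours lay close together. The difference between PCL and MCL was -1.001 (95% interval -2.59 to 0.59, adjusted p 0.420) and PCL minus BL -1.09 (-2.57 to 0.38, adjusted p 0.433). Both sizes rested on single tumours: they were -1.49 and -1.58 without PCL1, and -0.46 and -0.55 without PCL4. The PCL minus MCL value was -0.52 without MCL3 and -1.72 without MCL1. With normexp the values were -0.08 and -0.31.

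Per3, the period gene least needed for rhythm, was near the detection limit: it was well above background on 8 arrays, not on PCL3, PCL4 or BL3. It ranged from -6.56 in PCL3 to -4.39 in MCL3, with overlapping types. Its PCL minus MCL difference was -0.60 (95% interval -1.73 to 0.53) and became 0.40 after normexp background correction, so its direction is not settled.

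Cry1, the stronger of the cryptochrome repressors, was highest in MCL. It read -2.78, -2.96, -3.38 and -3.19 in PCL, -2.95, -2.51 and -2.45 in MCL and -4.36, -2.78, -3.09 and -3.32 in BL. BL1 was well below every other tumour, and the types otherwise overlapped. MCL minus BL was 0.75 (95% interval -0.02 to 1.52, adjusted p 0.283), short of the threshold. It was 0.43 without BL1 and 0.36 with normexp.

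Cry2, the other cryptochrome, varied within each type. Its main probe read 1.62, 0.16, -0.13 and -0.42 in PCL, -0.03, 1.31 and 1.84 in MCL and 0.88, 1.11, 0.96 and -0.19 in BL. PCL1, MCL2 and MCL3 were high, and PCL3, PCL4, MCL1 and BL4 were low, so each type held a low tumour. The second probe ranked the tumours alike (r 0.935). Between PCL and MCL the difference was -0.73 (95% interval -2.01 to 0.55) and moved with single tumours, to -1.17 without PCL1, -1.26 without MCL1, -0.49 without PCL4 and -0.33 without MCL3.

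Nr1d1, the receptor that represses Arntl, read -2.62, -1.76, -1.06 and -1.26 in PCL, -3.51, -1.17 and -3.05 in MCL and -2.23, -1.55, -1.84 and -0.34 in BL. MCL1 and MCL3 were the lowest of all tumours and BL4 the highest, with MCL2 among the higher ones. MCL minus BL was -1.09 (standard error 0.63, 95% interval -2.49 to 0.31, adjusted p 0.420) and PCL minus MCL 0.91 (95% interval -0.50 to 2.31). Without MCL2 they were -1.79 and 1.61, and without MCL1 -0.62 and 0.44. Without BL4 MCL minus BL was -0.70.

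**Figure D3:**
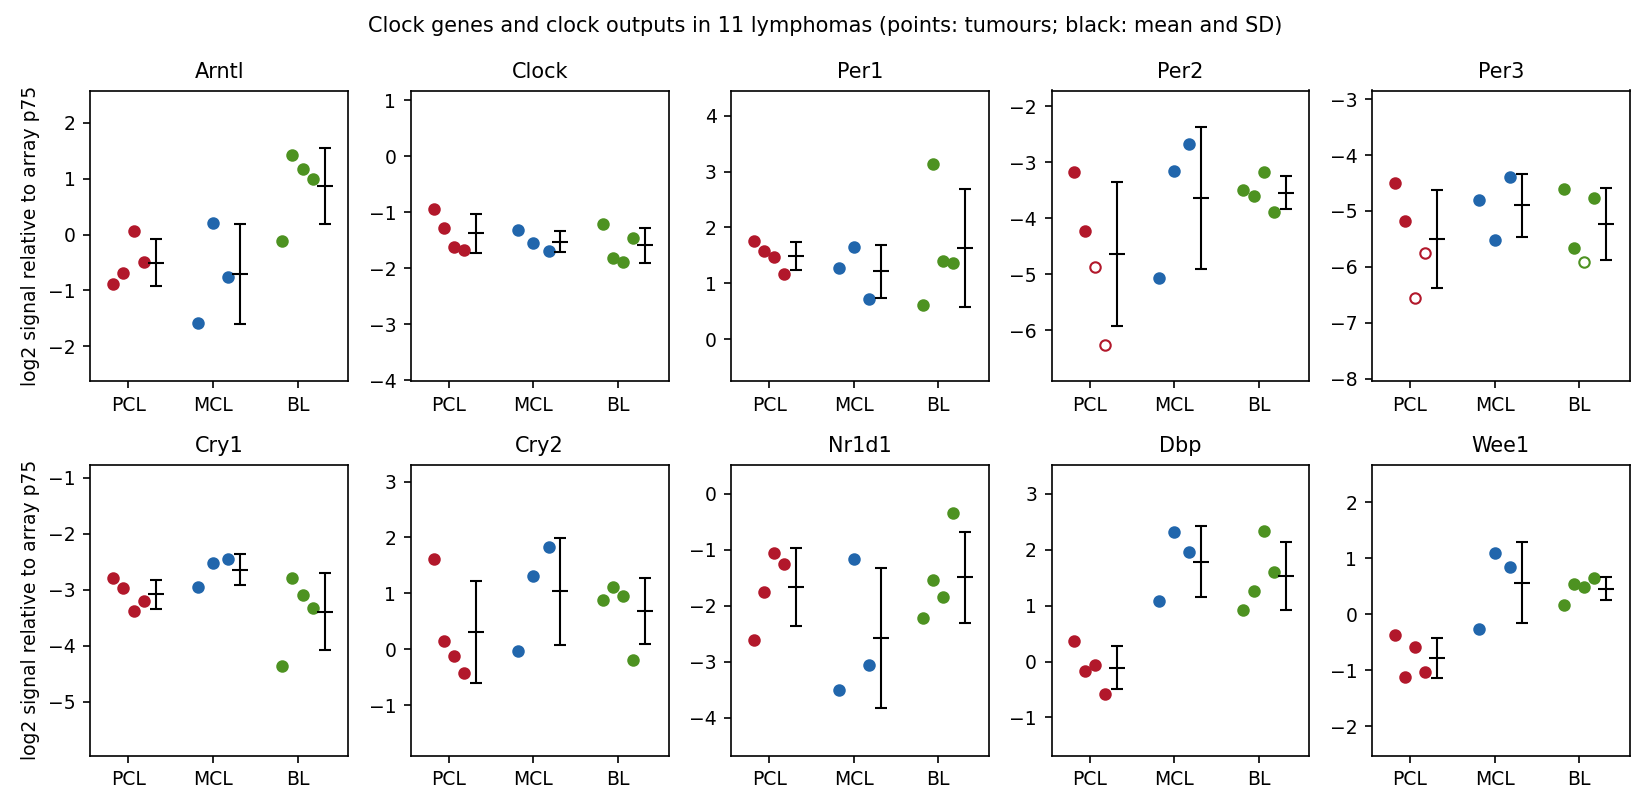
Log2 signal relative to the array's 75th percentile (y axis, the same span in each panel) by lymphoma type (x axis) for the 8 tested clock genes other than Arntl2 and for the clock outputs Dbp and Wee1. Points are tumours, open where not well above background, and black bars are the mean and SD. BL2 to BL4 are above the rest for Arntl, the types overlap for the Per and Cry genes and Nr1d1, and PCL lies below the other types for Dbp and Wee1.

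Of these 8 clock genes, 0 passed any test at an adjusted p of 0.05 (limma, moderated F and contrasts), whether for any difference among the types or in a single comparison. At an unadjusted p of 0.05, 1 of the 8 passed the F test. In the contrasts 0 passed PCL against MCL, 1 PCL against BL and 1 MCL against BL, Arntl each time. At that level 4920 of the 20181 genes passed in PCL against MCL, 3543 in PCL against BL and 3726 in MCL against BL. Unadjusted counts for the lists below are to be read beside these numbers. At an adjusted p of 0.05, 8.43% of the 20181 genes passed the F test. In PCL against MCL 6.94% did, in PCL against BL 0.659% and in MCL against BL 6.64%. A count of 0 among 8 genes lies near these shares and is not a result about the clock genes. For each of the 8 except Clock, an interval given above reaches beyond a difference of 1 log2 unit, so the types are not shown to be alike.

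**Figure D4:**
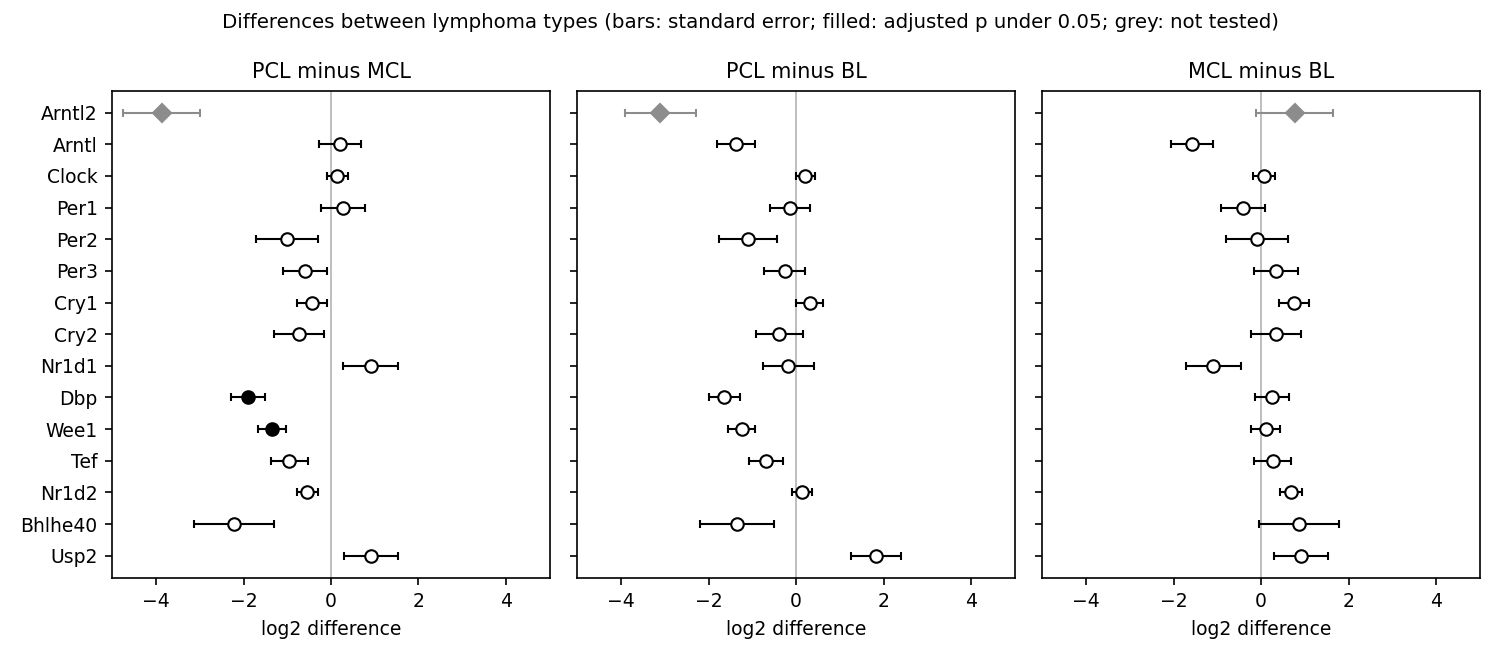
Log2 differences (x axis) for the 9 tested clock genes and 6 listed clock output or regulator genes (y axis) in PCL minus MCL, PCL minus BL and MCL minus BL, with bars of 1 standard error. Filled black points have an adjusted p under 0.05. Grey diamonds mark Arntl2, whose test result is not shown because the gene was selected on its difference between types. Dbp and Wee1 in PCL minus MCL are the filled points.

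Among genes that the clock drives, Dbp and Wee1 were lower in plasma cell than in mantle cell lymphomas. Dbp, a D-box activator and one of the most rhythmic clock outputs known, read 0.37, -0.16, -0.06 and -0.58 in PCL. In MCL it read 1.09, 2.32 and 1.95, and in BL 0.92, 1.27, 2.33 and 1.60. Every PCL was below every MCL and BL tumour, and MCL and BL overlapped. PCL minus MCL was -1.90 (standard error 0.39, limma adjusted p 0.0231), a ratio of 3.72 between MCL and PCL, and the second Dbp probe gave -1.82. PCL minus BL was -1.64 (standard error 0.36, adjusted p 0.0674), which missed the threshold and passed it without PCL1 (-1.80, adjusted p 0.0334). The PCL minus MCL call was lost without any one of PCL2, PCL3, PCL4, MCL2 or MCL3 (adjusted p 0.0592 to 0.0797), with differences of -1.91 to -1.63.

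Wee1, a kinase that delays entry into mitosis and a known target of the activator pair, read -0.38, -1.13, -0.59 and -1.03 in PCL, -0.26, 1.10 and 0.84 in MCL and 0.16, 0.53, 0.49 and 0.65 in BL. Every PCL was below every other tumour, with MCL1 just above PCL1. The PCL minus MCL difference was -1.34 (standard error 0.33, adjusted p 0.0394) and PCL minus BL -1.24 (standard error 0.30, adjusted p 0.0891). The PCL minus MCL call was lost in 8 of the 11 fits that left out a tumour, all but those without PCL1, MCL1 or BL1 (adjusted p 0.0514 to 0.126), and with normexp (0.0919) or no filter on dim probes (0.0668). PCL minus BL passed without PCL1 (adjusted p 0.0439) or without MCL1 (adjusted p 0.0416). Dbp and Wee1 both lie on chromosome 7. Over 754 bright genes of that chromosome the median difference was -0.33 in PCL minus MCL and -0.43 in PCL minus BL. Over bright genes of all autosomes these medians were 0.04 and 0.02. The chromosome's part in the Dbp and Wee1 differences was not tested.

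Of the 7 clock output genes listed, 6 were tested, and 2 (Dbp and Wee1) passed, both lower in PCL than in MCL, beside 6.94% of all genes. The median PCL minus MCL difference of the 6 was -0.71, against -0.03 over all genes. In PCL against BL and in MCL against BL 0 of the 6 passed (3 and 0 at an unadjusted p of 0.05), with median differences of -0.29 and 0.32. Usp2, a deubiquitinase with rhythmic expression, stood the other way, with PCL minus BL of 1.82 (adjusted p 0.141) and MCL minus BL of 0.91. Tef, the relative of Dbp (named after its values were seen), had a PCL minus MCL difference of -0.95 (adjusted p 0.204), and Nampt, the enzyme of NAD salvage, an MCL minus BL difference of 0.58 (adjusted p 0.424).

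None of the 14 tested regulators of the clock loop, of 15 listed, passed in any comparison, beside 6.94%, 0.659% and 6.64% of all genes in PCL against MCL, PCL against BL and MCL against BL. At an unadjusted p of 0.05, 1, 0 and 4 passed. The counts of 0 are near the shares over all genes and are not a result about the regulators. Their median differences were -0.08, -0.15 and -0.05 in that order. The largest were in Bhlhe40, an E-box repressor, at -2.22 in PCL minus MCL (adjusted p 0.170) and -1.36 in PCL minus BL (adjusted p 0.446). Its values within MCL ran from -3.06 to 1.01. Nfil3, the D-box repressor, differed by -1.58 between PCL and MCL (adjusted p 0.374), by -0.70 between PCL and BL (adjusted p 0.750) and by 0.88 between MCL and BL (adjusted p 0.725), with BL from -4.10 to 1.03. Ncor1, the corepressor through which Nr1d1 acts, had MCL minus BL of -1.31 (adjusted p 0.150).

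Among kinases and ubiquitin ligases that act on PER and CRY proteins, 0 of 8 tested genes, of 9 listed, passed in any comparison (0, 1 and 0 at an unadjusted p of 0.05), which is again near those shares. The largest differences were in the kinase Csnk1e, at 0.60 in PCL minus MCL (adjusted p 0.468), 1.08 in PCL minus BL (adjusted p 0.236) and 0.48 in MCL minus BL (adjusted p 0.673). BL4 was low for this gene (-1.71, against 0.09 to 1.10 elsewhere). The ligase subunit Btrc differed by 0.43 between PCL and MCL and 0.33 between PCL and BL. The median differences of the 8 genes were 0.03, -0.07 and -0.03.

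Arntl2 belongs to the bHLH-PAS family of paired transcription factors, and 8 of 12 listed relatives outside the clock were tested. Only Sim2, a developmental factor, passed among these 8, near the shares over all genes (6.94% in PCL against MCL and 6.64% in MCL against BL). It read -2.53, -2.29, -2.23 and -2.32 in PCL, -1.51, -1.46 and -1.72 in MCL and -2.19, -2.50, -2.35 and -2.47 in BL, and the MCL tumours lay above all others. They exceeded PCL, with PCL minus MCL of -0.78 (adjusted p 0.0219) and BL, with MCL minus BL of 0.81 (adjusted p 0.0136). On none of the arrays was a second Sim2 probe well above background. The first call was lost without any one of PCL2, PCL4, MCL1 or MCL2 (adjusted p 0.0603 to 0.0717) and the second without MCL1 or MCL2 (adjusted p 0.0560 and 0.0557). Both calls were lost after normexp correction (-0.45, adjusted p 0.414, and 0.49, adjusted p 0.727), the first also with no filter on dim probes (adjusted p 0.0514) and the second in the authors' deposited log2 values (adjusted p 0.0709).

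Larger differences that did not pass were those of Ahr, the dioxin receptor, and its repressor Ahrr. Ahr read 1.42, -3.45 and -2.41 in MCL against -4.97 to -3.52 in PCL and -5.86 to -2.92 in BL, with MCL1 alone above 0. The differences were -2.96 for PCL minus MCL (adjusted p 0.133), -0.43 for PCL minus BL (adjusted p 0.876) and 2.53 for MCL minus BL (adjusted p 0.251). Ahrr was well above background in all 4 PCL, 1 of 3 MCL and 1 of 4 BL, with PCL minus MCL of 2.39 (adjusted p 0.0670) and PCL minus BL of 2.32 (adjusted p 0.110). The median differences of the 8 relatives were -0.18, 0.02 and 0.25.

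Across tumours, the members that moved together most were Per2 and Cry2. Their Pearson r over 11 tumours was 0.868 and Spearman's rho 0.873, and r was 0.883 after type means were subtracted and 0.885 without PCL4 and MCL1, the 2 tumours farthest from the median of Per2. The PCL and MCL tumours spread along the line, and the BL tumours lay closer together on it. Tef followed both, with r of 0.832 for Cry2 and 0.781 for Per2. Per2 also went with Ciart, a repressor of the activator pair (r 0.766), with Dbp (0.721) and with Wee1 (0.726).

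Arntl and Nr1d1 varied in the same direction, with Pearson r of 0.679 and Spearman's rho of 0.664. The value was 0.750 with type means subtracted and 0.602 without BL2 and MCL1. Arntl and Per3 went in opposite directions (r -0.445, and -0.712 with type means subtracted), as did Arntl and Clock (-0.594 and -0.688). Clock and Per3 varied together (r 0.602, and 0.772 with type means subtracted), and Per3 and Nr1d1 in opposite directions (-0.543). Without the 2 tumours farthest from the median of the first gene named, r was -0.368 for Arntl and Per3 and -0.502 for Arntl and Clock. It was 0.419 for Clock and Per3 and -0.373 for Per3 and Nr1d1. Per3 was not well above background on PCL3, PCL4 or BL3. Arntl2 was compared with only some listed genes, all clock loop regulators or clock outputs. Among those it correlated highest with Tef (0.698), Wee1 (0.674), Bhlhe40 (0.669) and Dbp (0.667), and with type means subtracted these values were 0.426, -0.138, 0.368 and -0.267. Its highest correlation with another member was 0.503 (Cry2). These pairs were picked, after their values were seen, from 36 pairs of tested members and 40 pairs of a member with a listed gene. They share arrays and scaling, and no p is given.

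**Figure D5:**
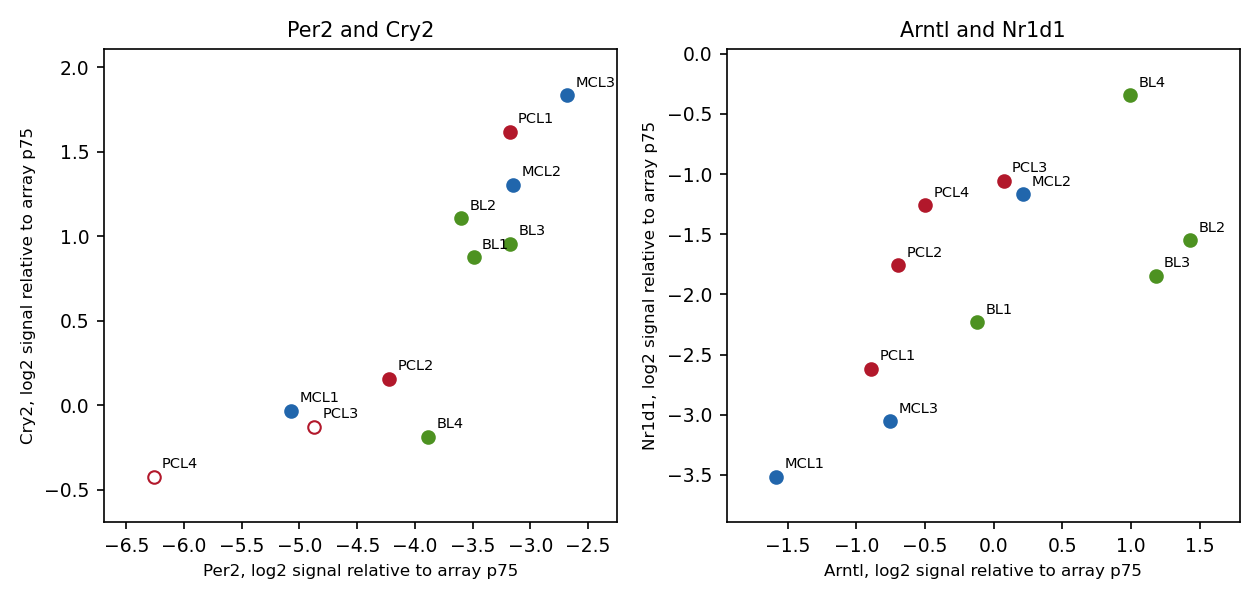
Log2 signals relative to the array's 75th percentile of Cry2 against Per2 (left) and of Nr1d1 against Arntl (right), with 1 point per tumour (red PCL, blue MCL, green BL; open where Per2 was not well above background). The PCL and MCL tumours are spread along the line in both panels, and each panel's correlation is positive, with r of 0.868 on the left and 0.679 on the right.

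Several clock genes also answer to stress and hormone signals, and the other cells of a tumour bring clock transcripts of their own, so lists for both were measured. Means over a list are of values centred on each gene's mean over the tumours. The 10 immediate early genes were lowest in BL1 (-1.49), and ranged from -0.76 to 0.77 in MCL, 0.09 to 0.44 in PCL and up to 0.53 in BL. Per1 and Cry1 were lowest in BL1 too, while Per2, Per3 and Cry2 were not (-3.49, -4.61 and 0.88 in that tumour). In the single comparisons 1 of the 10 immediate early genes passed, Atf3, a stress-induced factor. Its PCL minus MCL was 3.35 (adjusted p 0.0485), which passed in 3 of 11 fits that left out a tumour. Jun passed the moderated F test but no single comparison (limma, adjusted p 0.0368 for F), with PCL minus BL of 1.92 (adjusted p 0.0621). Of 7 glucocorticoid-induced genes 0 passed in any comparison (1, 1 and 0 at an unadjusted p of 0.05), and the mean over the 6 other than Per1 ran from -1.09 in MCL1 to 1.11 in MCL2. The part of these signals in the Per and Cry values was not tested.

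Macrophage markers were higher on average in PCL than in MCL for 12 of 12 genes (range of tumour means -0.83 to 2.56 in PCL, -2.03 to 0.11 in MCL and -0.66 to 0.10 in BL). Of these, 2 passed in PCL minus MCL, beside 6.94% of all genes: Cd14 (2.001, adjusted p 0.04997) and Msr1 (2.06, adjusted p 0.0314). In PCL against BL 12 of 12 were also higher in mean in PCL. At an unadjusted p of 0.05, 10 of 12 passed in PCL against MCL, 6 in PCL against BL and 0 in MCL against BL. The median differences were 2.52, 1.59 and -0.81 in that order. The macrophage mean of PCL1 was below those of all 4 BL tumours and of MCL1 (0.11), and above those of MCL2 (-2.03) and MCL3 (-1.50). The Arntl2, Dbp and Wee1 values of PCL1 were below those of every MCL tumour. PCL1 is a single tumour and differed in more than its macrophage mean. Its mean over plasma cell markers (0.49) was the lowest of the PCL tumours. Its median over bright genes of chromosome 6 was 0.04, against -0.41, -0.47 and -0.52 in PCL2 to PCL4. The part of macrophages in the Arntl2, Dbp and Wee1 values was not tested. Without PCL1 the PCL minus MCL differences were -3.98 for Arntl2 (a description), -2.06 for Dbp (adjusted p 0.0159) and -1.48 for Wee1 (adjusted p 0.0265).

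Plasma cell markers had means of 0.49 to 1.40 in PCL, -0.83 to 0.86 in MCL and -1.30 to -0.26 in BL. In the single comparisons 0 of 7 passed (3, 4 and 0 at an unadjusted p of 0.05). Sdc1 passed the moderated F test alone (limma, adjusted p 0.0473), beside 8.43% of all genes. One of the 8 B cell markers passed, Blk, with PCL minus MCL of -1.26 (adjusted p 0.0394), while 5 of the 8 had a higher mean in PCL than in MCL (median difference 0.08). T cell markers lay between -1.31 and 1.39, with Cd4 passing in PCL minus MCL (-0.78, adjusted p 0.0368) and MCL minus BL (0.96, adjusted p 0.0142). Of the 7 T cell genes tested, 3 were higher in mean in PCL than in MCL (median -0.38) and 4 in MCL than in BL (median 0.62). Granulocyte markers lay between -2.23 and 2.61, with Elane passing in the same contrasts (-1.02, adjusted p 0.0160, and 1.36, adjusted p 0.00392). Elane went against its list: 7 of the 8 granulocyte markers had a higher mean in PCL than in MCL (median 1.55) and 2 of 8 a higher mean in MCL than in BL (median -0.81). Stromal and endothelial markers lay between -1.09 and 1.53, with Kdr passing in MCL minus BL (0.82, adjusted p 0.0476). Kdr was the only 1 of the 8 with a higher mean in MCL than in BL (median of the list -0.50). Of 5 erythroid markers 2 were tested and 0 passed (0 at an unadjusted p of 0.05), with means from -2.63 to 2.44. When each tumour was left out in turn, these calls passed in 1 (Cd14), 5 (Msr1), 2 (Blk), 5 and 9 (Cd4), 10 and 11 (Elane) and 2 (Kdr) of 11 fits. Of all genes, 6.94% passed in PCL against MCL, 0.659% in PCL against BL and 6.64% in MCL against BL. The counts of 0 or 1 per comparison in the lists of this paragraph are near those shares. They are not a result about the cell types. The part of other cells in the clock gene values was not tested.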

How the data were processed

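Total RNA (0.2 micrograms) was labelled with Cy3, per the labels' protocols. The authors' deposited scanner files hold the processed signal, a linear intensity extracted with Feature Extraction 10.7.3.1 with spatial and multiplicative detrending, per the file headers. The authors' deposited value table is on a log2 scale found from its values (array medians of 7.25 to 7.26), and the sources used here do not give how it was made. Probe coordinates are mm9, per the file headers. RefSeq tables of GRCm38.p6 gave names and promoters.

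Flagged spots were dropped, spots of a probe averaged, and log2 values taken relative to each array's 75th percentile over non-control spots. Probes had to be well above background on 3 or more arrays, 46 without a usable spot on every array were left out, and the brightest probe stood for a gene. limma 3.58.1 in R 4.3.3 fitted a mean per type over 11 arrays, with Benjamini-Hochberg adjustment over 20181 genes; an adjusted p under 0.05 is a pass, and the script was tested on simulated data. Intervals are 95% intervals of that fit. A lower bound sets the brighter type's mean against the higher, on each dim array, of the probe's own signal and the lowest signal well above background.

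The members and lists were chosen with earlier results of these data known. Genes were named by rule: the 10 members, listed genes that passed, the 2 largest differences per clock or bHLH-PAS list and comparison, the 8 genes most like Arntl2, and those within 500 kb of it; Tef was added after its values were seen, and 1 gene that the rule names is not reported here. Arrays of 1 number in different types correlated between -0.05 and 0.17 in their deviations from the type means, mostly above 0. Arrays of different numbers correlated between -0.24 and 0.17, on both sides of 0. These values do not settle whether the numbers pair the arrays, and the main fit did not treat them as pairs. Alternatives were normexp (offset 50), quantile normalization, the authors' table, other filters (none, or 6 arrays), the mean of probes, a replicate block and leaving out each array.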

Additional observations from a re-analysis of the deposited data

How the results depend on the processing

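Arntl2 kept its sign in PCL minus MCL (-4.50 to -3.37) and PCL minus BL (-4.01 to -2.59) under all 18 alternatives, and MCL minus BL turned from 0.77 to -0.14 without BL4. The number of the 8 other clock genes that passed stayed 0 in PCL against MCL and PCL against BL, and was 0 to 1 when an array was left out for any difference among the types (1 without BL1) and for MCL against BL (Arntl, 1 without BL1 and 1 without MCL2). Their differences and those of Dbp, Wee1 and Sim2 that had not passed changed sign in 25 of 522 alternative values. The 4 that had passed kept their sign, and Dbp passed in 12, Wee1 in 7 and Sim2 in 11 (PCL minus MCL) and 13 (MCL minus BL) of 18. The cause was not tested. Counts over all genes moved more. Genes with any difference among types, 1701 in all, numbered 131 with normexp, 1050 without the filter and 717 to 2830 when an array was left out. PCL against MCL, 1401 genes, gave 197, 697 and 333 to 2462. PCL against BL, 133 genes, gave 13, 86 and 5 to 1075. MCL against BL, 1341 genes, gave 65 with normexp, 771 with quantile normalization, 680 with the authors' table and 687 to 1373 when an array was left out. The largest counts in the first 3 came without PCL1. Of the 197 normexp calls in PCL against MCL 91 were higher in PCL, against 429 of 1401, and in PCL against BL 5 of 13 against 92 of 133 (55 of 95 with quantile normalization, 84 of 166 with the authors' table). Normexp moved the median of all genes to 0.16, 0.12 and -0.10 in the 3 comparisons, from -0.03, 0.09 and 0.06. Of the 36 clock and bHLH-PAS list genes tested, 3 passed for any difference (0 with normexp; 0 to 4 when an array was left out), 3 in PCL against MCL (1 with normexp, 1 without the filter; 0 to 4), 0 in PCL against BL (0 to 2, with 2 without PCL1 and 1 without MCL1) and 1 in MCL against BL (0 with normexp, 0 with the authors' table; 0 to 2). With the array number as a replicate block, 341 genes passed for any difference, 391 in PCL against MCL, 64 in PCL against BL and 380 in MCL against BL, and 0 listed clock or bHLH-PAS genes did in the first, second and last (Dbp -1.83, adjusted p 0.0737). Per2, Per3, Npas2 and 2 Arntl2 probes are limited by signal near background.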
